A study of Mus musculus with 6 samples.

Results

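Apelin is a peptide hormone cut from the precursor that the gene Apln encodes, and it acts through the G protein-coupled receptor encoded by Aplnr, for which Apela (Elabela) encodes the other known ligand. Of these 3 genes, 1 was measured here among 21269 genes, namely Apln, and Aplnr and Apela were not analysed here. Apln was chosen because its level was low after Malat1 silencing in these same libraries, so its own values are a description and carry no test. The libraries came from HL-1 cells, a line derived from mouse atrial cardiomyocytes and kept in a medium that contains norepinephrine. Both groups had 3 libraries and received 50 nM of an LNA-gapmer, LNA Control or LNA Malat1, 24 hours after seeding, and the RNA was taken 48 hours later. A gapmer is an oligonucleotide with a DNA core and locked nucleic acid at its ends, and an RNA bound to it is cleaved by RNase H. HL-1 is a single line, and the labels do not say that the 3 libraries of a group came from separate cultures, so the spread between libraries may be technical and the p-values measure that spread alone.

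In the heart, apelin is known as a peptide that strengthens contraction, and in vessels it relaxes the wall by way of nitric oxide from the endothelium. The receptor couples mainly to inhibitory G proteins, which lower cyclic AMP, and also to Gq, phospholipase C and protein kinase C, and it is switched off by receptor kinases and arrestins. The Apln gene is known to be induced by low oxygen through hypoxia-inducible factor, which is why the genes of that response were read beside it.

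The Apln gene (ENSMUSG00000037010) lies on the minus strand of the X chromosome, positions 48025146 to 48034853 (mm10). In the GENCODE M21 annotation of the same build, its transcript Apln-201 has 3 exons and 3149 bases. Exon 1 (X:48034439-48034853) holds the start codon and the first 67 coding bases, exon 2 (X:48028294-48028465) holds the rest of the coding sequence, and exon 3 (X:48025146-48027707) is 3′ UTR throughout. The last exon makes up 81.4% of the transcript and the coding sequence 7.4%, so most positions at which a read can be counted for Apln lie outside the part that is translated. No other gene model of that annotation (0 genes) overlaps it. The coding sequence is shown because it carries the hormone. Its 77 codons before the stop encode the precursor, and the capitals mark the last 13 of them, which encode the C-terminal end that is released as apelin-13 and binds the receptor.

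Apln coding sequence: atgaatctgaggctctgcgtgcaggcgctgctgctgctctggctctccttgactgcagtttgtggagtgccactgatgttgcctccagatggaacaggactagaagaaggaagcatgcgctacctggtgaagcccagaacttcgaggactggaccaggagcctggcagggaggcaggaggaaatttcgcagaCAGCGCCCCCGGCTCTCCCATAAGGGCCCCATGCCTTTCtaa

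The deposited values are the authors' read counts per gene, divided by 1 factor per library and rounded, and are called normalized counts here. They summed to between 4758777 and 4921406 per library. The factors could be recovered from the gaps that rounding leaves, from which 4512255 to 5592272 reads per library had been assigned to genes, with the factor of LNA Malat1 replicate 2 less certain than the others. LNA Malat1 replicates 1 and 3 differed by no more than sampling noise over all genes compared (chi-square 0.949 per gene over 14522 genes, chi-square test p = 1.0), though by more in the genes of at least 1600 reads (1.095 per gene, chi-square test p = 0.003). They were counted as 1 sample in each mean ± SD, so n is 2 for LNA Malat1, but the tests kept all 6 libraries as separate. This averaging can make the SD smaller, and for Apln it was 1.8 so counted and 3.8 over the 3 libraries. LNA Malat1 replicates 1 and 2 were also close to sampling noise (chi-square 1.021 per gene, chi-square test p = 0.041). They were not so in the genes of at least 1600 reads (1.663 per gene, chi-square test p = 5e-57). Replicates 2 and 3 lay further apart (1.171 per gene, chi-square test p = 1.5e-43), with 2.026 per gene at 1600 reads or more. The LNA Control pairs differed by more (1.768 to 4.178 per gene). The targeted RNA, Malat1, averaged 4872 ± 442 normalized counts (SD, n = 3) with LNA Control, against 2787 ± 6.7 (SD, n = 2) with LNA Malat1, or 57.2%, and its libraries ranged from 4369 to 5197 in the first group and from 2732 to 2833 in the second. The heart muscle markers Tnnt2, Tnni3, Actc1, Ryr2 and Ttn were all measured, but the cardiac myosin heavy chains Myh6 (0 to 7 normalized counts) and Myh7 (0 to 4) were at or near 0 in all 6 libraries.

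The normalized count of Apln was 194, 141 and 189 in replicates 1, 2 and 3 of LNA Control. In LNA Malat1 replicates 1, 2 and 3 it was at 38, 37 and 31. The groups did not overlap, and the highest LNA Malat1 value was 27.0% of the lowest LNA Control value. LNA Control averaged 174.7 ± 29.3 (SD, n = 3) and LNA Malat1 averaged 35.8 ± 1.8 (SD, n = 2), or 20.5% of that level. On the log2(normalized count + 1) scale the difference was -2.26 (SE 0.14), and it lay between -2.41 and -2.15 under 17 alternative settings. These are RNA levels of a whole culture, in which fewer cells that make the transcript and less transcript per cell cannot be told apart.

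**Figure D1:**
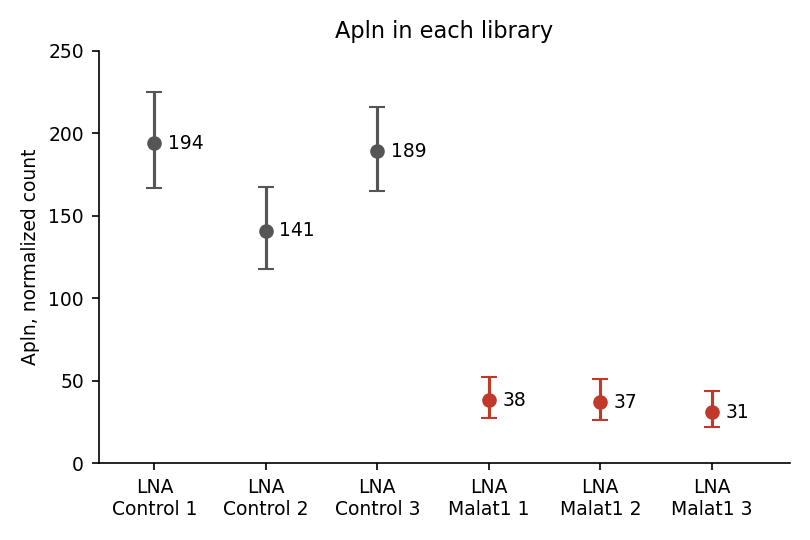
Normalized count of Apln (vertical axis) in each of the 6 libraries (horizontal axis), with LNA Control in grey and LNA Malat1 in red. Bars are exact Poisson intervals at 95% from the recovered reads and cover counting error only. The LNA Control libraries lie at 141 to 194 and the LNA Malat1 libraries at 31 to 38, with no overlap of the bars between groups.

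Behind these values stood 528 recovered reads in the 3 LNA Control libraries and 113 in the 3 LNA Malat1 libraries. Counting error gives each library an exact Poisson interval, and reads are not independent molecules, so these intervals cover counting error only. Around the 141 normalized counts of LNA Control replicate 2 the 95% interval ran from 118.0 to 167.6, and around the 38 of LNA Malat1 replicate 1 it ran from 27.3 to 52.0. The lowest interval of LNA Control thus lay above the highest of LNA Malat1. Within LNA Control the libraries were spread more widely than counting alone gives (SD of 29.3 normalized counts against 13.2 expected), with replicate 2 below the other two. Within LNA Malat1 the SD over the 3 libraries was 3.8 normalized counts, below the 5.8 expected from counting.

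Apln moved from the middle of the expressed genes to the lower part. Among 15632 genes ranked by normalized count per kilobase of exon, it stood at the 62.3, 53.1, and 60.8 percentile in LNA Control replicates 1, 2 and 3. It stood at the 24.0, 23.5, and 19.4 percentile in LNA Malat1 replicates 1, 2 and 3. Genes of a like LNA Control level mostly lay near no difference. For the 1228 other genes whose LNA Control mean was within 1.2 times that of Apln, the median log2 difference was -0.03. The lowest was -1.42 (Rtn4rl1), and 8 of the 1228 lay at -1 or lower. Apln was picked for its fall in these libraries, so its place below them is a description only.

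Among genes annotated to hormone activity or listed as vasoactive ligands, Apln ranked somewhat lower in LNA Malat1 than in LNA Control. Its level per kilobase of exon, in the mean of the libraries, was 55.47 normalized counts in LNA Control, against 11.35 in LNA Malat1. Of the 34 measured genes that carry the gene ontology term hormone activity in the authors' table or stand on a list of vasoactive peptide ligands, it had rank 6 in LNA Control and rank 9 in LNA Malat1. The genes were taken by annotation, with Copa at rank 1 in both groups (229.48 and 236.66). Many of the 34 were at low levels, as rank 9 in LNA Control (Gnrh1) was at 10.9. Adm, which encodes the vasodilator adrenomedullin, was at 119.62 per kilobase in LNA Control, against 82.3 in LNA Malat1. Inhba, which encodes the activin A subunit, went the other way on this scale, from 101.3 to 144.01. Metrnl, which encodes the secreted protein meteorin-like, had an LNA Control level close to that of Apln (54.22 per kilobase) and was at 33.26 in LNA Malat1.

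The genes around Apln were read to see whether a stretch of the X chromosome changed with it. Of the 9 other measured genes within 500 kb, 7 passed the filter on low values (an average normalized count of 5 or more) and 0 were called, where called means that limma gave an adjusted p no higher than 0.05 and a change of 1.5-fold or more. Over all 15650 genes tested, 10.9% were called. By the adjusted p alone, 1 of the 7 was higher (Bcorl1) and 2 were lower (Utp14a and Elf4), against 28.3% of all genes in either direction. The log2 differences of the 7 ran from -0.36 to 0.22 with a median of 0.00, close to the median of 0.02 over all genes.

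The nearest measured neighbour, Ocrl, which encodes a phosphoinositide phosphatase, lies 59.3 kb from Apln toward lower coordinates. It was at 588, 595 and 592 normalized counts in LNA Control, against 617, 607 and 626 in LNA Malat1. The log2 difference of 0.06 (SE 0.05) did not pass the test (limma adjusted p = 0.39). Smarca1, a chromatin remodelling ATPase 132.2 kb away on the same side, had a log2 difference of 0.00 (limma adjusted p = 0.99). Zdhhc9, a palmitoyltransferase 137.1 kb away on the other side, had one of 0.07 (limma adjusted p = 0.52). Utp14a, a factor of ribosome assembly 222.0 kb away, was lower by a log2 difference of -0.36 (limma adjusted p = 0.00045), and Elf4, a transcription factor 376.2 kb away, by -0.29 (limma adjusted p = 0.0036). The remaining 2 genes, Sash3 and Rab33a, were at 0 to 3 and 0 to 6 normalized counts and were not tested. Of the 670 other measured genes of the X chromosome 475 were tested, of which 29 were called higher and 16 lower, against 8% and 2.92% of all genes tested, with a median log2 difference of 0.01.

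**Figure D2:**
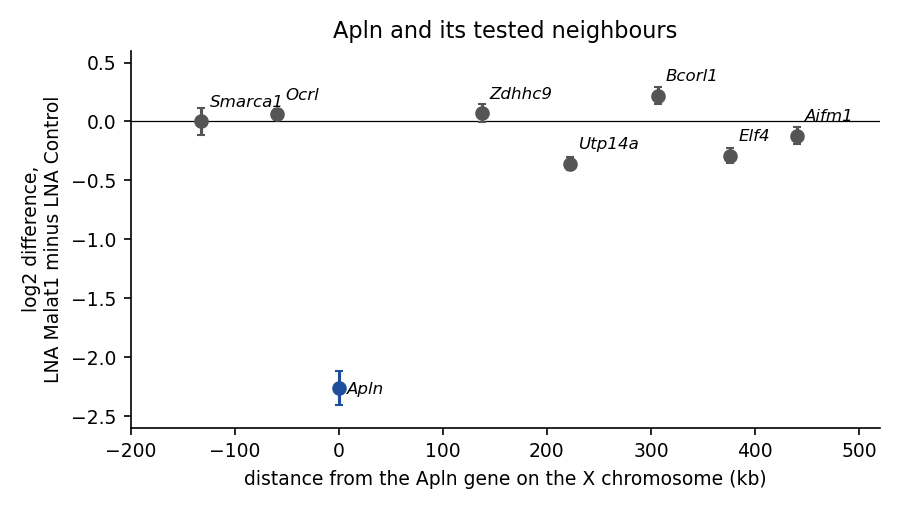
Log2 difference, LNA Malat1 minus LNA Control, on the log2(normalized count + 1) scale (vertical axis) against the distance from the Apln gene in kb (horizontal axis), for Apln in blue and its 7 tested neighbours in grey, with SE bars. Apln lies at -2.26 and the neighbours between -0.36 and 0.22.

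The 5 genes whose values over the 6 libraries were most like those of Apln were found by the root mean square difference of log2(normalized count + 1), each gene centred on its own LNA Control mean. The search ran over 12324 genes whose normalized count averaged 20 or more, and because it used the values of Apln, no test is given. Map7d2, which encodes a microtubule-associated protein and also lies on the X chromosome, was closest, with a root mean square difference of 0.39 on the log2 scale. It was at 218, 231 and 229 normalized counts in LNA Control, against 75, 67 and 56 in LNA Malat1. Ak4, a mitochondrial adenylate kinase, came next (0.47), at 122, 87 and 130 in LNA Control, against 35, 39 and 34 in LNA Malat1. Ak4 also had its lowest LNA Control value in replicate 2, as Apln did. Colec12, a scavenger receptor, followed at 0.51, Prmt2, an arginine methyltransferase, at 0.52, and Garem1, an adaptor of growth factor signalling, at 0.56. The log2 differences of the 5 genes lay between -1.77 and -1.53, so each was smaller in size than that of Apln, the gene picked for its fall.

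**Figure D3:**
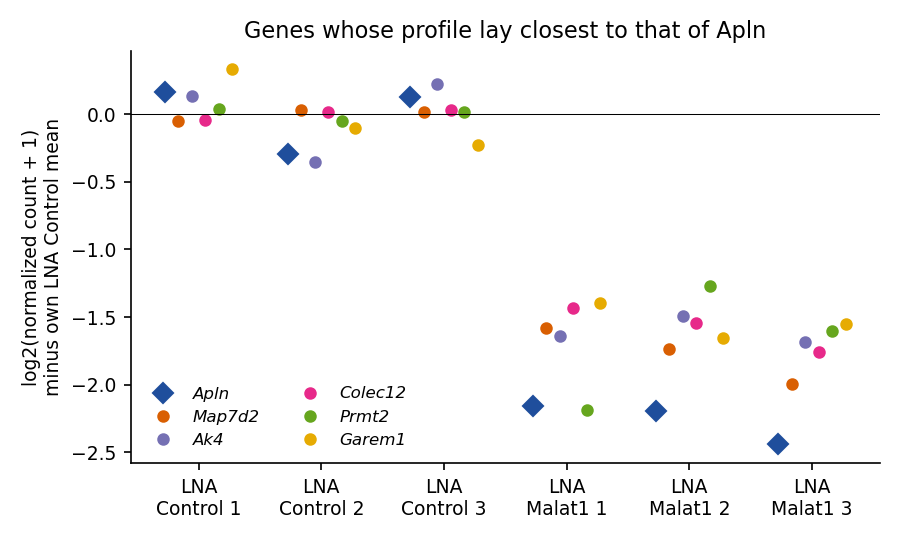
Values of log2(normalized count + 1) minus each gene's own LNA Control mean (vertical axis) in the 6 libraries (horizontal axis), for Apln (blue diamonds) and the 5 genes closest to it (circles). In LNA Malat1 Apln lies below the other genes in replicates 2 and 3, and in replicate 1 Prmt2 lies beside it.

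The precursor of apelin is cut to the active peptides by proprotein convertases, and the mature peptides are trimmed by peptidases. Of 11 genes on the list of these enzymes, 6 were measured, 5 were tested and the other 5 were not analysed here. The list had 1 member called higher, against 8% of all genes tested, and 0 called lower, against 2.92%. The median log2 difference was -0.12. Pcsk6 was below the filter at 0 to 4 normalized counts.

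Pcsk5, a convertase of the secretory pathway, was at 4, 4 and 7 normalized counts in LNA Control, against 24, 23 and 33 in LNA Malat1. It rose by a log2 difference of 2.22 (SE 0.31, limma adjusted p = 0.00022), and its groups did not overlap. Its level stayed low in both groups beside that of Furin, the convertase that acts most widely in the secretory pathway, although these are normalized counts not divided by length. Furin was at 930, 760 and 737 in LNA Control, against 753, 693 and 779 in LNA Malat1, overlapping groups with a log2 difference of -0.12 (SE 0.08, limma adjusted p = 0.3). Pcsk7 (log2 difference -0.24, limma adjusted p = 0.027) was lower by less than 1.5-fold. Prcp, a carboxypeptidase that removes the last residue of apelin, was higher by less than 1.5-fold (0.31, limma adjusted p = 0.01), at 131, 127 and 127 in LNA Control, against 154, 165 and 160 in LNA Malat1. Pcsk4 was at 28 to 51 in LNA Control, against 27 to 39 in LNA Malat1, with a log2 difference of -0.14 (limma adjusted p = 0.68).

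With the receptor gene not analysed here, the signalling proteins known to act below it were read from a list of 51 genes, of which 47 were measured and all 47 were tested. Most of these genes serve many receptors. The list was chosen with earlier results of these data known, so its counts are a description only. Of them 4 were called lower, against 2.92% of all genes tested, and 0 were called higher, against 8%. By the adjusted p alone 18 were lower and 2 higher, against 14% and 14.3% of all genes, and 27 did not pass. The median log2 difference was -0.12, and 34 of the 47 were below 0, against 47.2% of all genes. Under the other scalings the number below 0 was 30 to 36, the number lower by the adjusted p was 15 to 19 and the median was -0.14 to -0.08.

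The G proteins were represented by 7 alpha subunits. Gnai2, an inhibitory subunit with high counts, was at 934, 910 and 870 normalized counts in LNA Control, against 928, 910 and 902 in LNA Malat1. Its log2 difference was 0.01 (limma adjusted p = 0.86), with overlapping groups, and Gnai3 (-0.06, limma adjusted p = 0.43) and Gnaq (-0.12, limma adjusted p = 0.09) did not pass the test either. Gnao1, the Go subunit of the same inhibitory class, fell from 58, 48 and 64 in LNA Control to 28, 27 and 37 in LNA Malat1, a log2 difference of -0.87 (SE 0.18, limma adjusted p = 0.0035). Gna13, an alpha subunit of another class, was lower by less than 1.5-fold (-0.20, limma adjusted p = 0.0081).

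The kinases and arrestins that turn off G protein-coupled receptors were lower by the adjusted p in 4 of 5 cases, against 14% of all genes tested. Grk5, a receptor kinase of heart muscle, was at 455, 484 and 512 in LNA Control, against 312, 304 and 318 in LNA Malat1. The log2 difference was -0.63 (SE 0.06, limma adjusted p = 1e-05), and the groups did not overlap. Quantile normalization left it just short of the fold change minimum. Arrb2, which encodes beta-arrestin 2, was at 239, 226 and 240 in LNA Control, against 153, 175 and 172 in LNA Malat1, a fall by less than 1.5-fold (-0.50, limma adjusted p = 0.00041). Arrb1 (-0.22, limma adjusted p = 0.018) and Grk6 (-0.25, limma adjusted p = 0.0064) were also lower by less than 1.5-fold. Grk2, the other main receptor kinase of the heart, had a log2 difference of 0.05 (limma adjusted p = 0.64).

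In the phospholipase C and protein kinase C group, 4 of 7 tested genes were lower by the adjusted p, against 14% of all genes. Plcb1, a phospholipase C that Gq activates, was at 116, 128 and 154 in LNA Control, against 89, 81 and 82 in LNA Malat1. It was called lower (log2 difference -0.64, SE 0.11, limma adjusted p = 0.0012), and without LNA Control replicate 3 its difference of -0.53 missed the fold change minimum. Prkca, the classical protein kinase C of heart muscle, was at 638, 640 and 618 in LNA Control, against 432, 436 and 450 in LNA Malat1 (-0.52, SE 0.05, limma adjusted p = 1.2e-05). Prkce (-0.50, limma adjusted p = 6.7e-05) and Plcb4 (-0.40, limma adjusted p = 0.0037) were lower by less than 1.5-fold as well.

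Of the 10 tested genes of the PI3K-AKT arm, 4 were lower by the adjusted p, against the same 14% of all genes. Akt2 was lower, with a difference of -0.29 (limma adjusted p = 0.0095), and Akt1 had a difference of -0.13 (limma adjusted p = 0.17). Pik3cg, the PI3 kinase that G proteins activate, was at 13, 12 and 15 in LNA Control, against 11, 4 and 3 in LNA Malat1. It was called lower (-1.20, SE 0.41, limma adjusted p = 0.047), but its call was lost under 8 of 15 alternatives, among them leaving out any LNA Control library (adjusted p = 0.055, 0.098 and 0.094) or LNA Malat1 replicate 2 (adjusted p = 0.15) or 3 (adjusted p = 0.18). Nos3, the nitric oxide synthase of endothelium, was at 11, 9 and 11 in LNA Control, against 15, 6 and 10 in LNA Malat1, close to the filter in both groups (limma adjusted p = 0.9).

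Among the remaining arms the changes were small. Mapk3, an ERK kinase (-0.20, limma adjusted p = 0.05), was lower by less than 1.5-fold, as was Prkaa1, a catalytic subunit of AMPK (-0.33, limma adjusted p = 0.0011). Hdac5, a histone deacetylase that leaves the nucleus when it is phosphorylated, was lower too (-0.35, limma adjusted p = 0.0015). The 2 genes of the list that were higher by the adjusted p were Mylk3, the cardiac myosin light chain kinase (0.27, limma adjusted p = 0.0085), and Klf4, a transcription factor (0.57, limma adjusted p = 0.017). Klf4 was at 65, 42 and 56 in LNA Control, against 81, 74 and 85 in LNA Malat1.

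**Figure D4:**
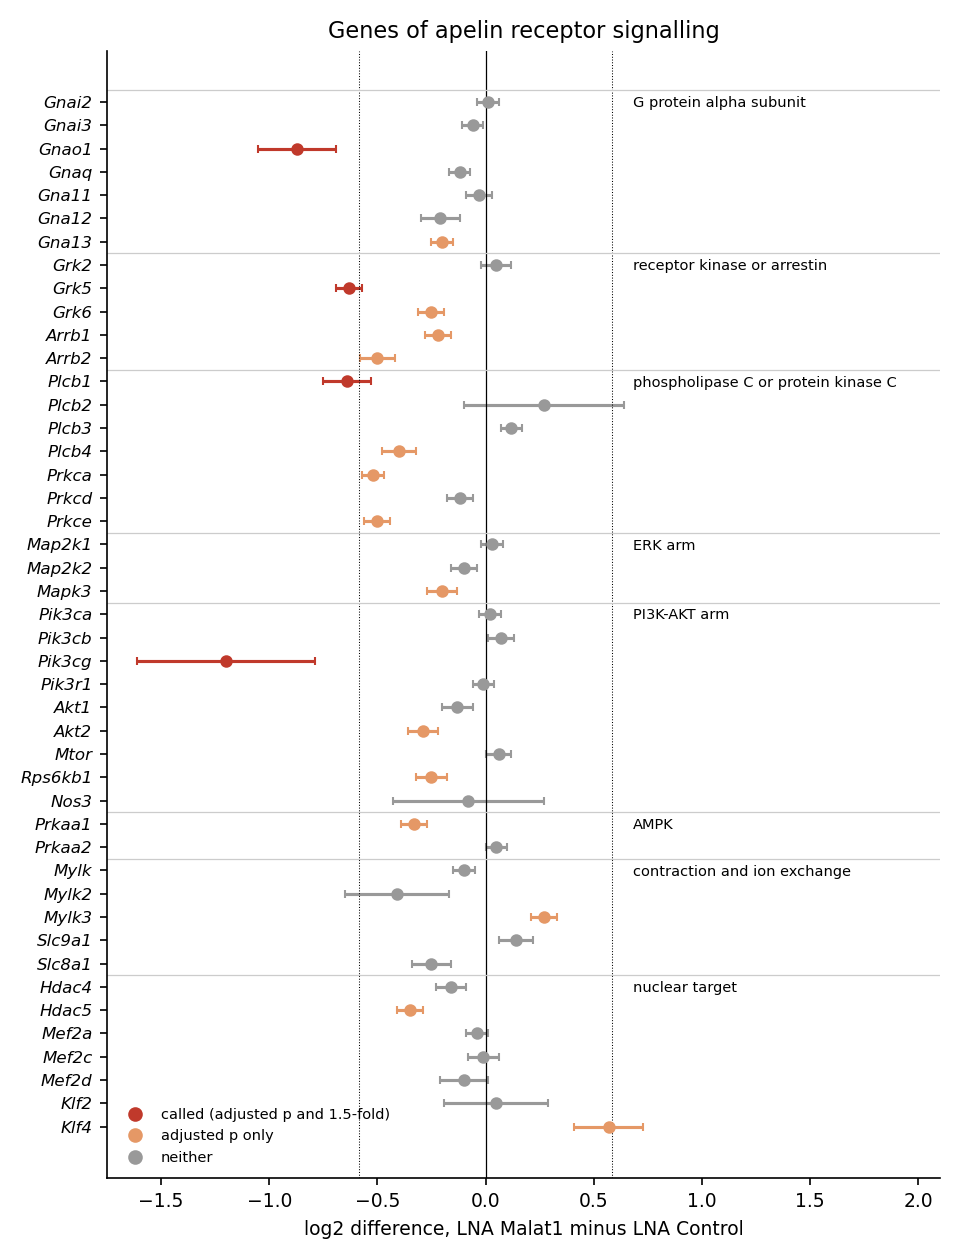
Log2 difference, LNA Malat1 minus LNA Control, on the log2(normalized count + 1) scale with SE bars (horizontal axis) for 45 of the 47 tested genes of apelin receptor signalling (vertical axis), grouped by role. Dotted lines mark the 1.5-fold change, red marks called genes, orange those past the adjusted p alone and grey the others. The 4 called genes lie on the lower side, and 32 of 45 points lie below 0.

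The hypoxia-inducible factor pathway was next, because Apln is one of its known targets. All 13 genes of the list were measured and 12 were tested, with 1 called higher, against 8% of all genes tested, 1 called lower, against 2.92%, and a median log2 difference of -0.06. Hif1a, the oxygen-regulated subunit, was at 1704, 1747 and 1610 normalized counts in LNA Control, against 1585, 1639 and 1537 in LNA Malat1. These groups overlapped, with a log2 difference of -0.09 (SE 0.05, limma adjusted p = 0.25). The RNA of Hif1a does not measure the activity of the factor, which is set mostly by the stability of its protein. Arnt, the constant partner subunit, had a log2 difference of -0.03 (limma adjusted p = 0.65). Epas1, the HIF-2 alpha subunit, was at 8, 8 and 3 in LNA Control, against 11, 12 and 12 in LNA Malat1 (0.88, limma adjusted p = 0.1), and Hif3a was below the filter at 1 to 2.

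Arnt2, a partner subunit related to Arnt, was at 22, 15 and 18 in LNA Control, against 96, 119 and 133 in LNA Malat1. It rose by a log2 difference of 2.60 (SE 0.18, limma adjusted p = 9.5e-07), and the lowest LNA Malat1 library lay far above the highest of LNA Control. Among the prolyl hydroxylases that mark the alpha subunits for destruction, Egln1 was lower by less than 1.5-fold, at 691, 630 and 606 in LNA Control, against 527, 533 and 504 in LNA Malat1 (-0.30, limma adjusted p = 0.0026). Egln3, which hypoxia-inducible factor itself induces, was at 152, 108 and 171 in LNA Control, against 82, 108 and 92 in LNA Malat1. It was called lower (-0.59, SE 0.15, limma adjusted p = 0.013), though LNA Control replicate 2 and LNA Malat1 replicate 2 had the same value. The call of Egln3 was lost under 8 of 16 alternatives, with log2 differences of -0.54 and -0.45 without LNA Control replicate 1 or 3 and of -0.50 and -0.58 without LNA Malat1 replicate 1 or 3. Cited2, which competes with the factor for its coactivators, was lower by less than 1.5-fold (-0.40, limma adjusted p = 0.0081). Vhl, Egln2, Hif1an, Ep300 and Crebbp did not pass the test, with log2 differences from -0.17 to 0.19.

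The list of 26 genes that low oxygen is known to induce in many cell types had 23 members measured and 21 tested, with Car9 (2 to 5 normalized counts) and Vldlr (0 to 5) below the filter and Ero1a, Stc2 and Lox not analysed here. Of the 21, 6 were called lower, against 2.92% of all genes tested, and 0 were called higher, against 8%. That 8% came largely from genes with a mean below 50, as few of the 21 had. By the adjusted p alone 14 were lower, against 14% of all genes, and 0 were higher. The median log2 difference was -0.33, against 0.02 over all genes. All 21 tested members had a fitted difference below 0, down to -0.00 for Vegfa, and under the other scalings 19 to 21 did, with 14 to 15 lower by the adjusted p and a median of -0.35 to -0.29. For 19 of the 21 the LNA Malat1 values were all below the LNA Control values, against 20.8% of all genes tested. The list was chosen with earlier results of these data known, so these counts are a description only.

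The called members described here have roles in glucose use, mitophagy and stress. Ankrd37, an ankyrin repeat protein, was at 40, 24 and 23 in LNA Control and 12 in each LNA Malat1 library, with a log2 difference of -1.16 (SE 0.26, limma adjusted p = 0.0055). Bnip3, a receptor for the removal of mitochondria, was at 143, 125 and 133 in LNA Control, against 55, 79 and 67 in LNA Malat1. Its log2 difference was -1.0 (SE 0.13, limma adjusted p = 0.00013). Its relative Bnip3l was lower by less than 1.5-fold (-0.54, limma adjusted p = 3.5e-05).

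Ndrg1, a stress-responsive gene, was at 332, 287 and 318 in LNA Control, against 154, 160 and 164 in LNA Malat1, a log2 difference of -0.96 (SE 0.07, limma adjusted p = 1.8e-06). Slc2a1, which encodes the glucose transporter GLUT1, was at 751, 710 and 654 in LNA Control, against 473, 419 and 429 in LNA Malat1, a difference of -0.68 (SE 0.07, limma adjusted p = 1.2e-05). The groups of both genes were far apart relative to their spread. Pfkfb4, a regulator of glycolysis (-0.67, SE 0.18, limma adjusted p = 0.013), was at 61, 59 and 60 in LNA Control, against 36, 30 and 48 in LNA Malat1. Its call was lost without LNA Malat1 replicate 1 or 2 (limma adjusted p = 0.055 and 0.06).

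The members lower by less than 1.5-fold included Adm at -0.51 (limma adjusted p = 0.00096) and the glycolytic Ldha at -0.36 (limma adjusted p = 0.00029). The first enzyme of glucose use, Hk2, was at -0.24 (limma adjusted p = 0.0054), and Pdk1, which holds pyruvate back from the mitochondria, was at -0.29 (limma adjusted p = 0.0036). Not every target passed the test. Vegfa, the vascular growth factor, was at 764, 754 and 729 in LNA Control, against 756, 719 and 765 in LNA Malat1, overlapping groups with limma adjusted p = 0.96. Kdm3a, a histone demethylase, had a difference of -0.04 (limma adjusted p = 0.62). Pgk1, a glycolytic enzyme, had one of -0.22 (limma adjusted p = 0.1), with all LNA Malat1 values below those of LNA Control. None of the 21 tested members had a log2 difference as large in size as the -2.26 of Apln, but Apln was picked for its fall and they were not.

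**Figure D5:**
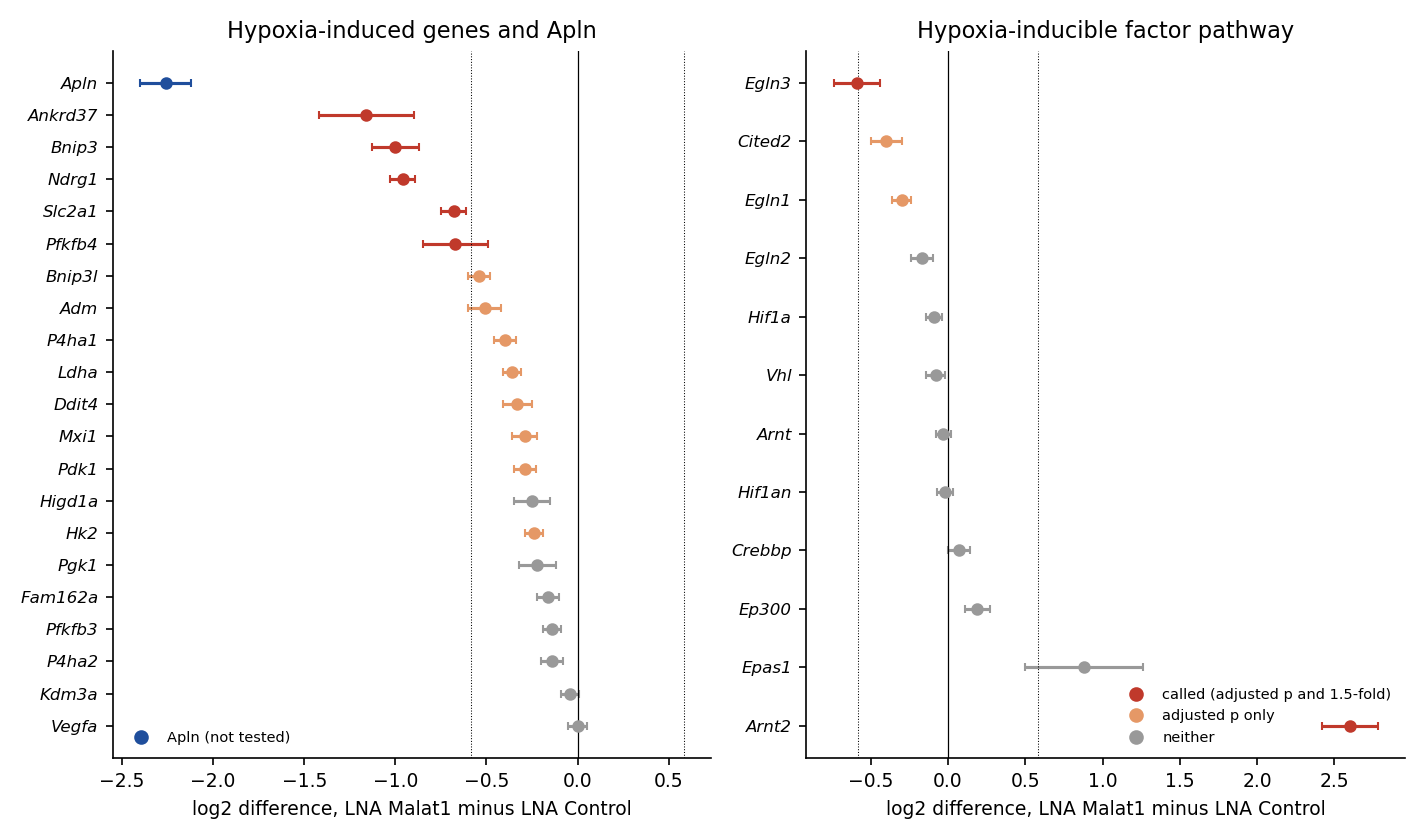
Log2 difference, LNA Malat1 minus LNA Control, on the log2(normalized count + 1) scale with SE bars (horizontal axes) for Apln and 20 of the 21 tested hypoxia-induced genes (left) and the 12 tested genes of the hypoxia-inducible factor pathway (right). Dotted lines mark the 1.5-fold change, red marks called genes, orange those past the adjusted p alone, grey the others and blue Apln, which carries no test. The hypoxia-induced genes lie between -1.16 and -0.00, and in the pathway Arnt2 lies at 2.60.

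Other peptide systems of heart and vessel were mostly at low counts. Of 26 vasoactive ligands, 8 were measured and 2 tested. Adm, tested also among the hypoxia-induced genes, was at 186, 207 and 188 normalized counts in LNA Control, against 147, 124 and 138 in LNA Malat1, and it was lower by less than 1.5-fold. Edn1, which encodes the vasoconstrictor endothelin-1, was at 21, 14 and 17 in LNA Control, against 23, 28 and 24 in LNA Malat1 (0.52, limma adjusted p = 0.12). Nppb, the gene of the natriuretic peptide BNP, had a value of 0 throughout LNA Control and was at 10, 6 and 11 in LNA Malat1, and its mean was below the filter. Of 26 receptors for such peptides, 13 were measured and 7 tested, with 0 called, against 10.9% of all genes tested. Npr3, the clearance receptor of the natriuretic peptides, was higher by less than 1.5-fold (0.25, limma adjusted p = 0.01), at 496, 561 and 562 in LNA Control, against 658, 654 and 609 in LNA Malat1.

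Of the 30 other genes that the authors' table assigns to hormone activity, 17 were tested, with 2 called higher (Tg and Gnrh1) and 2 called lower (Fndc5 and Metrnl), against 8% and 2.92% of all genes tested, and a median log2 difference of 0.21. Metrnl was at 98, 81 and 79 in LNA Control, against 60, 51 and 49 in LNA Malat1 (-0.68, limma adjusted p = 0.0027). Fndc5, the precursor of irisin, was at 46, 43 and 55 in LNA Control, against 34, 29 and 26 in LNA Malat1 (-0.68, limma adjusted p = 0.013). Inhba was at 610, 632 and 700 in LNA Control, against 963, 925 and 868 in LNA Malat1, higher by less than 1.5-fold (0.51, limma adjusted p = 8.9e-05).

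Apelin is made by endothelial cells in many tissues, so markers of other cell types were read beside it. Of 14 endothelial markers 5 were measured, and their summed normalized counts were 100 to 105 in LNA Control, against 101 to 117 in LNA Malat1. Vwf was at 2 to 4, and Pecam1 was at 1 to 10 in LNA Control, against 8 to 17 in LNA Malat1. Of the 4 tested, 0 were past the adjusted p, against 28.3% of all genes tested. Of 8 genes of endothelial tip cells, which are rich in apelin, 5 were measured, with sums of 507 to 640 in LNA Control, against 664 to 717 in LNA Malat1. A few genes made up most of these sums, among them Unc5b, at 200 to 231 in LNA Control, against 285 to 320 in LNA Malat1. Unc5b was higher by less than 1.5-fold (0.50, limma adjusted p = 0.00031), and the other 3 tested did not pass the adjusted p.

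The summed fibroblast markers (5 of 9 measured) were lower in LNA Malat1, at 4683 to 4817 against 5304 to 5911 normalized counts in LNA Control. A few genes made up most of that sum. Of the 4 tested, 1 was lower by the adjusted p and 3 did not pass, against 14% of all genes lower. Both measured macrophage markers of a list of 7 were called higher, against 8% of all genes tested. The log2 difference was 0.79 for Cd68 (limma adjusted p = 0.023) and 1.19 for Csf1r (limma adjusted p = 0.013). Their sums were 32 to 36 in LNA Control, against 54 to 81 in LNA Malat1. The call of Cd68 was lost under 6 of 15 alternatives and that of Csf1r under 3 of 15. The heart muscle markers other than Ttn (9 measured) summed to 3844 to 4193 in LNA Control, against 3869 to 3995 in LNA Malat1. Ryr2 made up most of that sum, at 2393, 2399 and 2706 in LNA Control, against 2237, 2245 and 2387 in LNA Malat1. Of the 8 tested markers, Ttn among them, 3 were higher by the adjusted p, against 14.3% of all genes tested. The other 5 did not pass. Tnnt2 was higher by less than 1.5-fold (0.15, limma adjusted p = 0.034). Ttn, the gene of the giant sarcomere protein titin, was called higher (0.66, limma adjusted p = 0.0013), as was Actn2, which encodes the Z-disc protein alpha-actinin (0.71, limma adjusted p = 0.0011). Ttn was at 8524, 9786 and 12110 in LNA Control, against 16176, 15112 and 16320 in LNA Malat1. The call of Ttn was lost without LNA Control replicate 1 (0.54), and that of Actn2 without LNA Control replicate 2 (0.55). Quantile normalization put Ttn at a log2 difference of 0.00. That scaling gives genes of the same rank the same value in each library. It therefore cannot show a change in a gene that keeps its rank, and the 0.00 does not show a lack of change in Ttn. The part of these cell type markers in the level of Apln was not tested.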

How the data were processed

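RNA of 3 LNA Control and 3 LNA Malat1 libraries was sequenced single-end. By the study's methods, the authors used Trimmomatic 0.39 for trimming, STAR 2.7.7a for alignment to mm10 and featureCounts 1.6.5 for counting on the exons of an Ensembl annotation, without reads that matched several genes or regions, and DESeq2 1.30.0 for normalization. The deposited values are therefore treated as a score and not as raw counts, being normalized and rounded to whole numbers. Fold change, p-value and ontology columns are also in the table. The authors' fold changes and p-values were not used here.

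A two-sided limma test (limma 3.58.1, R 4.3.3; lmFit, then eBayes with trend) was run on log2(normalized count + 1) for the 15650 of 21269 genes whose normalized count averaged 5 or more. P-values were adjusted over all of these by the Benjamini-Hochberg method. Called genes had an adjusted p no higher than 0.05 and a change of 1.5-fold or more. Log2 differences were fitted on all 6 libraries and understate the change of genes with low counts. With 3 libraries per group, the smallest p of an exact permutation test is 0.1. On simulated data with 200 changed genes (log2 size 1) among 15661, 99.5% were recovered, with 3 false calls. These figures hold for the simulated settings only and are not the recovery or false call rate in these libraries. They do not cover genes of low counts or changes smaller than a log2 size of 1. Nor do they cover the spread between the LNA Control libraries (chi-square 1.768 to 4.178 per gene).

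The members and gene lists were chosen with earlier results of these data known, and the hypoxia and signalling lists were written from general knowledge of the pathways. Genes named are the members, every called gene of a list, list members with defining roles, genes within 500 kb of Apln, and the 5 genes closest to it in profile. Members named beside these were chosen after their values were seen. Positions, exons and the coding sequence are from mm10 and GENCODE M21, in which 21224 of the genes have an identifier. Exonic lengths are from the same annotation. Python 3.11.15 with numpy 2.4.6, pandas 2.3.3, scipy 1.17.1 and matplotlib 3.10.9 was used for the rest. Recovered reads and their exact intervals cover counting error only. Whether the counting used the strand is not given in the sources used here. A few members of the lists are counted but not reported singly or drawn here.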

Additional observations from a re-analysis of the deposited data

How the results depend on the processing

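Across all genes tested, 1252 were called higher and 457 lower in LNA Malat1. Quantile normalization gave 748 higher and 718 lower, so the split between directions depended on the scaling, while the median over all genes moved by less than 0.1 on the log2 scale under each scaling. A mean of at least 50 gave 317 higher, LNA Malat1 replicates 1 and 3 taken as 1 sample gave 831 higher, and no fold change minimum gave 2231 higher and 2195 lower. Leaving out 1 library at a time gave 810 to 1582 higher and 406 to 475 lower, with the count of higher genes under 1252 by more than 1.5 times without LNA Malat1 replicate 1 or 3. The log2 difference of Apln kept its direction under all 17 alternatives, at -2.41 to -2.15, and was -2.41 to -2.18 with each library left out. With a mean of at least 50, 3 hypoxia-induced genes, 2 signalling genes and 0 processing enzymes were called, because fewer genes are then tested, and with no fold change minimum 14, 20 and 3 were past the adjusted p. With each library left out these lists had 4 to 6, 3 to 5 and 1 called. The hypoxia-inducible factor pathway had 1 called gene in place of 2 with a pseudocount of 5, with library totals set equal, with replicates 1 and 3 of LNA Malat1 as 1 sample and with voom weights on the recovered reads, which was the loss of Egln3. It had 4 with no fold change minimum and 1 to 2 with each library left out. Of 360 values of 23 named genes under the alternatives, 325 kept direction and call, 35 lost the call and 0 changed direction. The voom fit, and Apln as recovered reads per library total, were chosen after seeing the data.

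The labels give both groups replicate numbers 1 to 3. Deviations of same-numbered libraries from their group means correlated weakly over 10490 genes (0.086, 0.182 and 0.083), so the numbers were not taken as pairs, although 6 of 6 libraries correlated best with their own number, a hint from the data and not from the design. With the replicate block, Apln was at -2.26, 1297 genes were called higher and 442 lower, and 6 hypoxia-induced, 4 signalling, 2 pathway and 1 processing gene were called. The alternatives for Aplnr and Apela were not run. Depth limits Apln in LNA Malat1, where 35 to 40 reads per library stand behind each value, and genes such as Nppb, Pik3cg and Epas1 more so.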

Other observations

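Apln stands in the authors' table among the genes that regulate the force of heart contraction. Of the 23 other measured genes with that term, 20 were tested, with 2 called higher, against 8% of all genes tested, 0 called lower, against 2.92%, and a median log2 difference of -0.07. Csrp3, a protein of the muscle Z-disc, was at 4, 0 and 3 normalized counts in LNA Control, against 11, 10 and 10 in LNA Malat1 (2.06, limma adjusted p = 0.017). Its LNA Control mean was 2.3, so Csrp3 passed the filter of 5 only through the group where it was high. Its place among the 2 called genes rests on that. Myl2, the ventricular regulatory myosin light chain, was at 70, 63 and 60 in LNA Control, against 115, 100 and 92 in LNA Malat1 (0.66, limma adjusted p = 0.0016). Adrb1, the main beta-adrenergic receptor of heart muscle, was lower by less than 1.5-fold, at 223, 190 and 220 in LNA Control, against 154, 152 and 155 in LNA Malat1 (-0.45, limma adjusted p = 0.0012). Pln, the inhibitor of the calcium pump of the sarcoplasmic reticulum, was at 563, 572 and 597 in LNA Control, against 498, 487 and 473 in LNA Malat1 (-0.25, limma adjusted p = 0.0037).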
